A study of Rattus norvegicus with 6 samples.

Results

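The genes described here encode the collagens, fibronectin and associated proteins that make up the fibrous matrix of a scar: Col1a1, Col1a2, Col3a1, Col5a2, Col12a1, Col15a1, Col18a1, Fn1, Sparc and Lox. They were found by symbol in the annotation of an oligonucleotide array of rat genes. Every probe set (the group of short probes that reports 1 transcript) annotated singly to such a gene was taken. This gave 23 of the 8799 probe sets on the array and 9 of the 10 genes, with none for Col18a1, and the whole array carried 4737 singly named genes. RNA was isolated from the rat cord near thoracic segment 8. In 3 samples it was taken at the epicenter, the point of impact, of a contusion injury at day 35, and in 3 samples from the same level of uninjured cord. Each sample was hybridised to 1 array, and the comparison sets the chronic lesion against uninjured tissue of that level. The labels give no strain, sex, age, force of the blow or sham operation, no day for the uninjured samples, and do not state that every array stands for a separate animal. The p-values therefore rest on the spread among arrays, which may be technical.

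Fibrillar collagens are trimers of long chains wound into a triple helix. The chains are hydroxylated in the endoplasmic reticulum, their end pieces are cut off outside the cell, and lysyl oxidase then crosslinks the fibrils. Fibronectin is a large adhesive glycoprotein that integrins assemble into fibrils and on which collagen is laid down. In the healthy cord such matrix is found mainly in the meninges and around blood vessels, whereas after injury fibroblast-like cells deposit it in the lesion core, inside a border of astrocytes.

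Most collagen and fibronectin signals were higher in the contused cord, and those of Sparc were not. Of the 20 probe sets tested, 12 rose and 0 fell at an adjusted p of 0.05 in limma (Benjamini-Hochberg over all 6705 probe sets tested; 0 were lower with an unadjusted p under 0.05 as well). Over the whole array 7.79% of tested probe sets rose and 9.59% fell. The 12 belong to 7 genes: Col1a1, Col1a2, Col3a1, Col5a2, Col15a1, Fn1 and Lox. No probe set of Col12a1 or Sparc passed. The median log2 change of the 20 was 0.93, against -0.005 over all tested probe sets. In 14 of the 20, every contused array lay above every uninjured array, as it did for 16.6% of all tested probe sets. The 14 include the Fn1 probe set M28259cds_at, which was tested through the contused arrays alone, so its lack of overlap was fixed in advance.

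Testing required a signal above a floor of 61.6 on 3 or more of the 6 arrays, and lower values were raised to that floor. Of the 23 probe sets, 3 did not reach this, 2 for Lox and 1 for Fn1, and 1 tested Fn1 probe set reached it through the contused arrays alone. The calls depended on this filter. When all 8740 probe sets that are not controls were fitted, of which 1529 had all arrays at or under the floor, the log2 changes of the tested probe sets stayed as they were, but 1 of the 12 calls remained, an Fn1 probe set (U82612cds_at, adjusted p = 0.0416). At an unadjusted p of 0.05 in limma, 11 of the 23 were higher in that fit, as were 912 of all 8740.

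**Figure D1:**
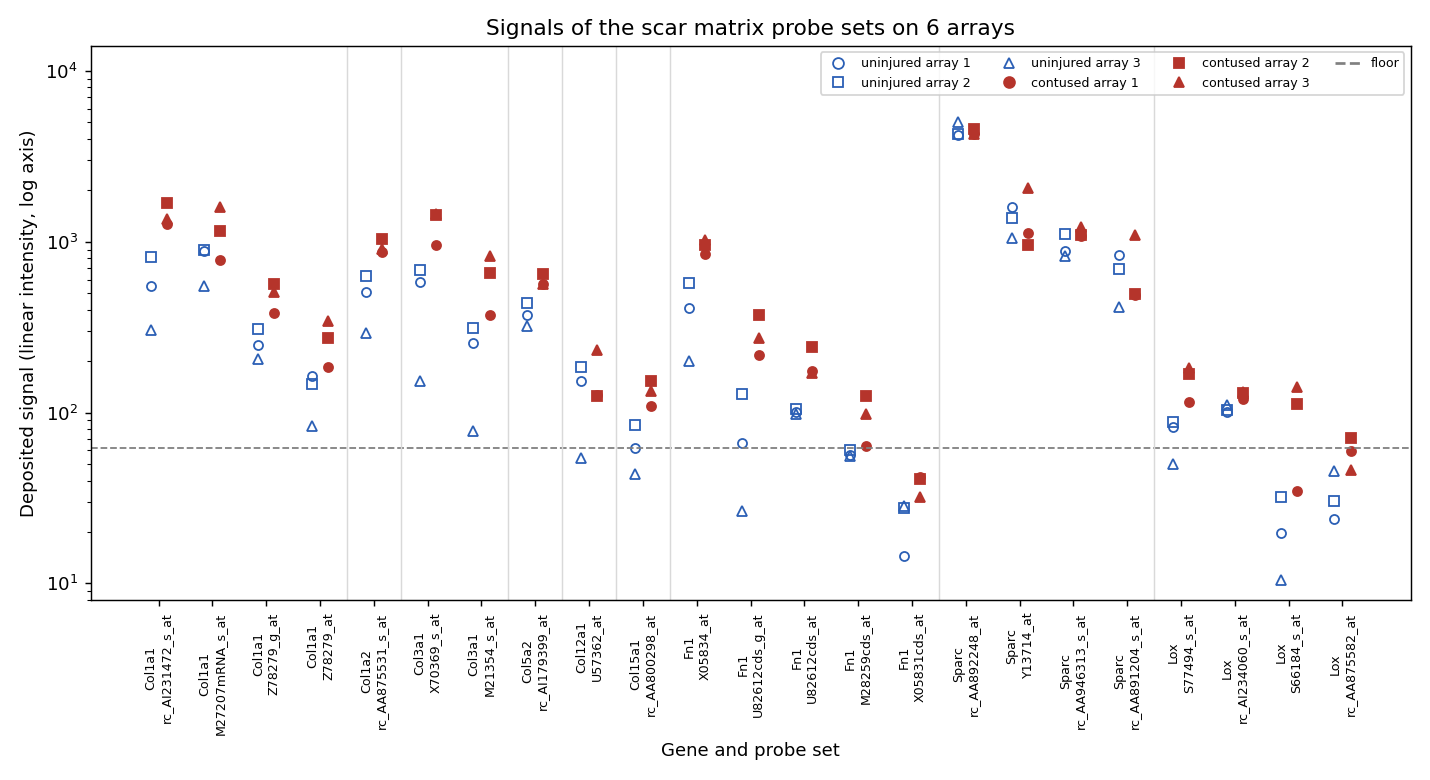
Deposited signal (linear intensity on a log axis) of the 23 probe sets, grouped by gene on the horizontal axis, with open blue symbols for the 3 uninjured arrays, filled red symbols for the 3 contused arrays and a dashed line at the floor of 61.6. Red symbols lie above blue ones for most collagen and Fn1 probe sets and overlap them for Sparc, and the open triangle of uninjured array 3 is often the lowest.

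Uninjured array 3 stood apart for these genes. It was the lowest uninjured array in 18 of the 20 tested probe sets, against 24.3% of all tested probe sets. With each gene represented by its brightest tested probe set (highest mean log2 signal), the 9 genes lay on average 0.49 below the uninjured mean there on the log2 scale (mean deviation -0.49), and 0.13 and 0.36 above it on uninjured arrays 1 and 2. The contused arrays lay 0.55, 0.82 and 0.91 above that mean. Across all genes the median deviation of uninjured array 3 was 0.01. Without it, 10 of the 20 probe sets rose and 0 fell. The calls lost were those of Col5a2 (adjusted p = 0.068) and of a Col1a1 probe set (Z78279_at, adjusted p = 0.0916), and 658 probe sets passed over the whole array in place of 1165.

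**Figure D2:**
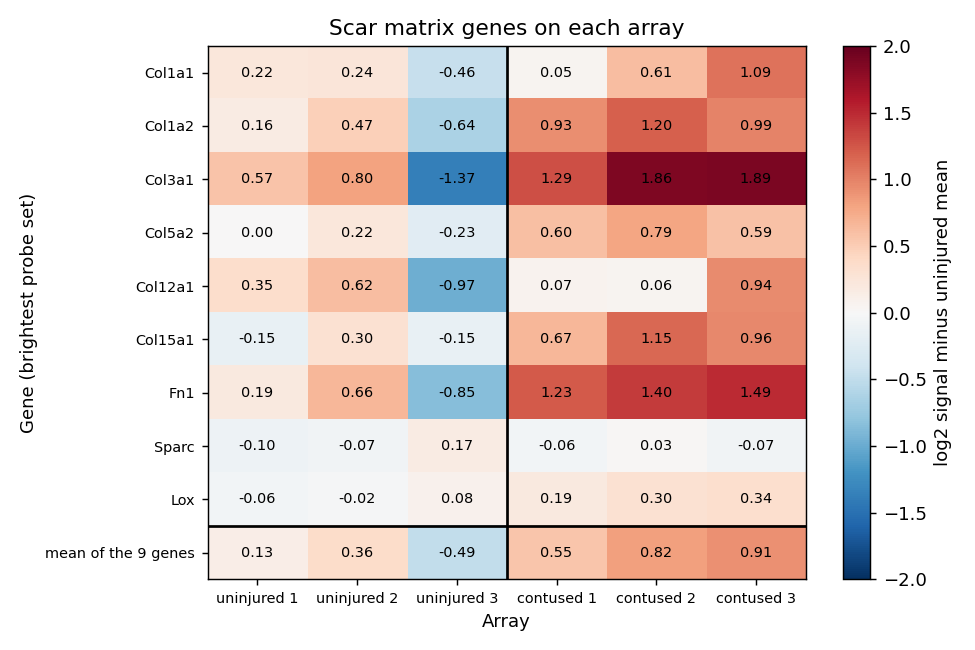
Log2 signal of the brightest tested probe set of each of the 9 genes on each array, minus the mean of the 3 uninjured arrays, with the mean of the 9 genes in the bottom row. Uninjured array 3 is blue for most genes (mean -0.49), and the contused arrays reach means of 0.55 to 0.91, while Sparc and Lox stay pale in these probe sets.

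The type I collagen genes, Col1a1 and Col1a2, encode the chains of the most abundant fibrillar collagen. Col1a1 had 4 probe sets, of which 3 rose. On rc_AI231472_s_at its signal was 1277, 1691 and 1349 on contused arrays 1 to 3 and 550, 813 and 303 on the uninjured arrays. The groups did not overlap, and the rise was 2.78-fold, from 555 ± 255 to 1440 ± 221 (SD, n = 3; 1.48 on the log2 scale, SE 0.29, limma adjusted p = 0.00603). Without uninjured array 3 it was 2.14-fold (adjusted p = 0.00693). The pair of probe sets named for another sequence record, which are not independent reports of the gene, had smaller changes: Z78279_g_at rose 1.91-fold, from 254 ± 52 to 484 ± 92.9, and Z78279_at 2.05-fold, from 131 ± 42.7 to 267 ± 78.2. The latter lost its call without any of 4 arrays, contused arrays 2 and 3 and uninjured arrays 2 and 3 (adjusted p up to 0.0916).

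The remaining Col1a1 probe set, M27207mRNA_s_at, had the highest mean log2 signal of the 4 and did not pass. It gave 782, 1148 and 1602 on the contused arrays against 877, 892 and 548 on the uninjured arrays. Contused array 1 lay below uninjured arrays 1 and 2, and the log2 change was 0.58 (95% interval 0.01 to 1.16, adjusted p = 0.159). With the tested probe sets of the gene averaged on the log2 scale, Col1a1 passed with a log2 change of 1.01 (SE 0.23, adjusted p = 0.0127). Col1a2, the partner chain, had 1 probe set, with 866, 1042 and 903 on the contused arrays and 509, 632 and 293 on the uninjured arrays. The groups did not overlap, and Col1a2 rose 2.05-fold, from 478 ± 172 to 937 ± 92.8 (1.04 on the log2 scale, SE 0.24, adjusted p = 0.0138). It kept its call with any 1 array left out, at 1.65-fold without uninjured array 3.

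Col3a1 encodes the type III chain, which is laid down with type I in young scars and vessel walls, and on all 6 arrays it had the largest change of the fibrillar collagen genes measured here. Its 2 probe sets rose 3.2-fold and 3.18-fold. On X70369_s_at the signal was 960, 1425 and 1453 in contused cord and 583, 686 and 152 in uninjured cord, a rise from 474 ± 283 to 1280 ± 277 (1.68 on the log2 scale, SE 0.46, adjusted p = 0.0294). On M21354_s_at it was 372, 656 and 820 against 256, 311 and 77.6. In both, uninjured array 3 was the lowest by far and the groups did not overlap. Without that array the rise was 1.99-fold and 2.07-fold (log2 changes 0.99 and 1.05, adjusted p = 0.012 and 0.0444), below the 2.14-fold of the Col1a1 probe set rc_AI231472_s_at. Neither probe set passed without contused array 2 (0.0767 and 0.0777) or contused array 3 (0.0635 and 0.0763).

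Col5a2 encodes a type V chain, which is built into type I fibrils and limits their diameter. It gave 567, 649 and 562 on the contused arrays and 375, 437 and 320 on the uninjured arrays, with no overlap. The rise was 1.58-fold, from 377 ± 58.6 to 593 ± 48.5 (0.66 on the log2 scale, SE 0.15, adjusted p = 0.0126). Leaving out contused array 2 or uninjured array 3 took the adjusted p to 0.0598 and 0.068. Col3a1 and Col5a2 are next to each other in the GRCr8 gene order with no protein-coding gene between them. The difference between their changes was not tested.

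Collagens that are not fibrillar themselves were mixed. Col15a1 encodes a collagen of the zone between basement membranes and fibrils. It gave 109, 152 and 133 on the contused arrays and 61.7, 84.3 and 43.8 on the uninjured arrays, where array 3 lay under the floor. It rose 1.9-fold (log2 change 0.93, SE 0.17, adjusted p = 0.00449), a call kept with any 1 array left out (adjusted p up to 0.0247). Col12a1 encodes a collagen that sits on the surface of type I fibrils, and it did not pass. Its signal was 127, 125 and 231 on the contused arrays and 153, 185 and 54.4 on the uninjured arrays. Contused arrays 1 and 2 lay below uninjured arrays 1 and 2. The log2 change was 0.36 (95% interval -0.48 to 1.19, adjusted p = 0.582), and -0.13 without uninjured array 3.

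RefSeq promoter sequences of the GRCr8 assembly were matched by symbol for 5 of the 10 genes, Col1a2, Col5a2, Col15a1, Col18a1 and Sparc. The 250 bases before the annotated start of 3 that rose and of Sparc, which did not pass, are given 5′ to 3′ in the direction of the gene, to set genes that rose beside a matrix gene that did not pass. Capitals mark the motif CCAAT, the motif TATAAA and the motif CAGAC, each searched on both strands. CAGAC is a short core to which Smad proteins of TGF-beta signalling bind. The marked matches do not overlap each other.
Col1a2, chr4:33518307-33518556, plus strand: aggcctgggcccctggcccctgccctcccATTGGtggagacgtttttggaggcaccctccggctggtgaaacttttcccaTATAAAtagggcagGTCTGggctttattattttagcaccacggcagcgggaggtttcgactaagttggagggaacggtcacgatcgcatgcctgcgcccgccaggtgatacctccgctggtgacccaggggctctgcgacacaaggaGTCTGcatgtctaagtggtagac
Col5a2, chr9:55090152-55090401, minus strand: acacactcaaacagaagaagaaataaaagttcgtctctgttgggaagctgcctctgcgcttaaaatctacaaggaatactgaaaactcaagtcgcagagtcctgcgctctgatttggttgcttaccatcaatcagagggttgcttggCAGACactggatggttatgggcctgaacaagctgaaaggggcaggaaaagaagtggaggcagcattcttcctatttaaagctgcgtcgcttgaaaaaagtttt
Col15a1, chr5:66297296-66297545, plus strand: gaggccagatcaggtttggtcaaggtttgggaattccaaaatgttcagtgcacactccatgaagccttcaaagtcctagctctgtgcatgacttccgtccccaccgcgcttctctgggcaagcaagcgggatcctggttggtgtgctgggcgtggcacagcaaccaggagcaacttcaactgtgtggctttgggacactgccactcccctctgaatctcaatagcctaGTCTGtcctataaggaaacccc
Sparc, chr10:40038817-40039066, minus strand: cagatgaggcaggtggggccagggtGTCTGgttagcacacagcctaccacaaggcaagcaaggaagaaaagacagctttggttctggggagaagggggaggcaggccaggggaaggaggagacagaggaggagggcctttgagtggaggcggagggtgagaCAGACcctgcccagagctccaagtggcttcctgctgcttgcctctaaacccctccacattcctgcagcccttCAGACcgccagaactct
Col1a2 held CCAAT on the opposite strand, beginning 221 bases before the annotated start, and TATAAA beginning 170 bases before it. In windows of the same length, 34% of the 33469 promoters in the table held CCAAT on either strand and 12.9% held TATAAA. The motif CAGAC was present 2 times in Col1a2, 1 time in Col5a2, 1 time in Col15a1 and 3 times in Sparc, and in 42.9% of all promoters. GGGCGG, the GC box, was searched too; it is in 30.5% of all promoters and in none of these 4 windows. These matches describe the letters of the windows and were not tested against the expression changes.

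Fn1, the fibronectin gene, had 5 probe sets, and 3 of the 4 tested rose. On X05834_at the signal was 848, 951 and 1017 on the contused arrays and 412, 572 and 200 on the uninjured arrays. The groups did not overlap, and the rise was 2.59-fold, from 394 ± 187 to 939 ± 85.1 (1.37 on the log2 scale, SE 0.31, adjusted p = 0.0113), or 1.93-fold without uninjured array 3. On U82612cds_g_at it was 218, 370 and 273 against 66, 128 and 26.7, a rise of 3.48-fold (log2 change 1.8, SE 0.28, adjusted p = 0.00169). The last of these values lies under the floor, so the log2 change is smaller than that of the raw signals.

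The third rise was on U82612cds_at, named for the same record, and uninjured array 3 was close to the others there. It gave 175, 242 and 171 on the contused arrays and 101, 105 and 98.2 on the uninjured arrays, and rose 1.91-fold (log2 change 0.93, SE 0.16, adjusted p = 0.00338). All 3 Fn1 calls were kept with any 1 array left out. M28259cds_at exceeded the floor on all 3 contused arrays (64.1, 126 and 98.7) and on 0 uninjured arrays, at least 1.5-fold higher, and did not pass (adjusted p = 0.0746). In the fit with the replicate number as a block its adjusted p was 0.0431, but the replicate numbers are not supported as a pairing. The probe set was tested through the contused arrays alone, with every uninjured value set to the floor, so that fit adds no support for a rise. X05831cds_at was under the floor on all arrays, at 32 to 42 on contused and 14.4 to 28.3 on uninjured arrays.

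**Figure D3:**
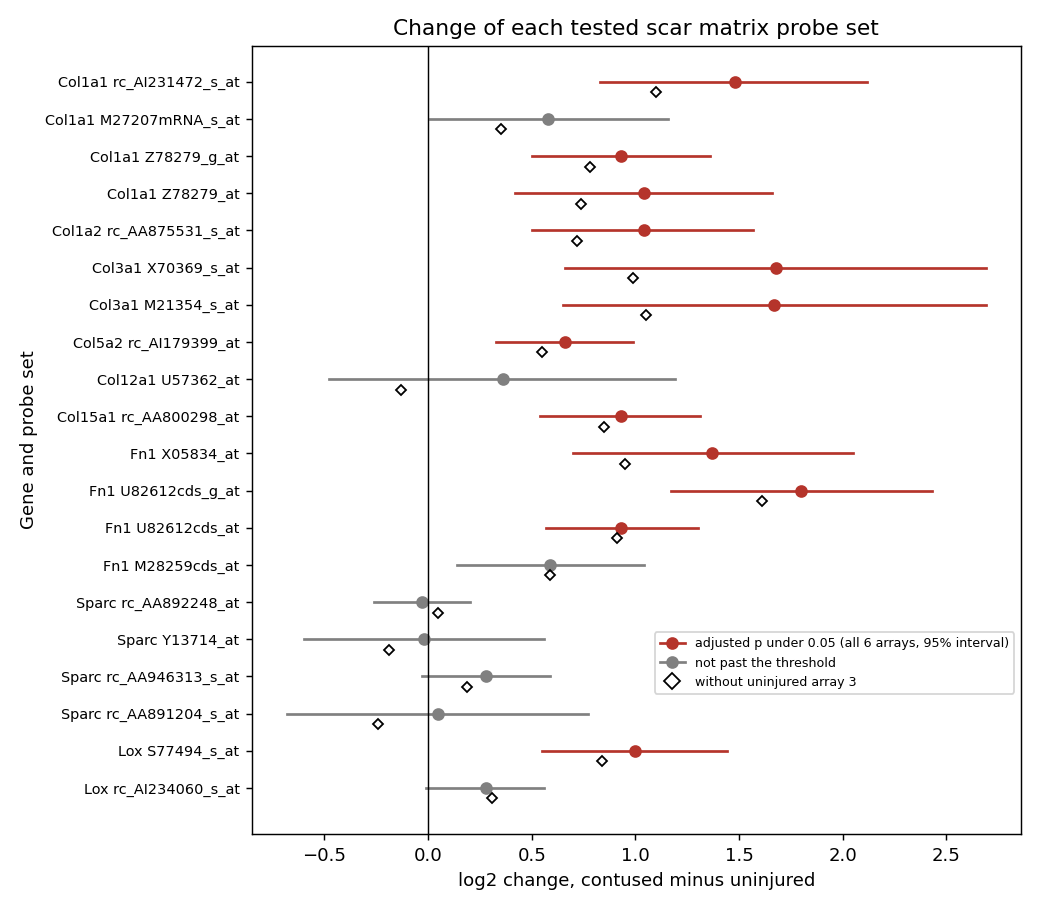
Log2 change of each of the 20 tested probe sets, contused minus uninjured, as a circle with its 95% interval (red where the adjusted p was under 0.05, grey otherwise), and as a diamond without uninjured array 3. The 12 red circles lie between 0.66 and 1.8, the 4 Sparc circles between -0.03 and 0.28, and most diamonds lie to the left of their circle.

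Sparc encodes a calcium-binding glycoprotein that binds collagen and is made in the uninjured nervous system by glia and vessels. None of its 4 probe sets passed (0 of 4 higher or lower in limma, 0 at an unadjusted p of 0.05). The brightest, rc_AA892248_at, gave 4300, 4591 and 4284 on the contused arrays and 4198, 4284 and 5043 on the uninjured arrays. The groups overlapped, and its log2 change was -0.03, with a 95% interval of -0.26 to 0.2 that leaves out a 2-fold change in either direction (adjusted p = 0.866).

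The other Sparc probe sets gave wider intervals. On Y13714_at the signal was 1127, 951 and 2074 in contused cord against 1601, 1377 and 1045 in uninjured cord, and on rc_AA891204_s_at it was 486, 494 and 1094 against 836, 688 and 414. Both were highest on contused array 3, which was also the highest array for Col12a1 and for M27207mRNA_s_at of Col1a1. Their log2 changes were -0.02 (interval -0.6 to 0.56) and 0.05 (interval -0.68 to 0.77). The fourth, rc_AA946313_s_at, had a log2 change of 0.28 (adjusted p = 0.203), which passed under quantile normalization (0.4, adjusted p = 0.0487). Direction cannot be given for 3 of the 4, whose sign changed with the scaling or with 1 array left out: rc_AA892248_at (0.01 with the arrays scaled to the same trimmed mean), Y13714_at (0.08 under quantile normalization) and rc_AA891204_s_at (-0.34 without contused array 3).

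Lox encodes lysyl oxidase, which starts the crosslinks between collagen chains and of elastin. It was dim on all 4 of its probe sets, of which 2 were tested. S77494_s_at gave 115, 169 and 182 on the contused arrays and 82.4, 87.6 and 49.9 on the uninjured arrays, with no overlap. It rose 1.99-fold (log2 change 1, SE 0.2, adjusted p = 0.00714), and 1.79-fold without uninjured array 3 (adjusted p = 0.034). On rc_AI234060_s_at the signal was 119, 129 and 133 against 101, 103 and 111. The groups again did not overlap, but the log2 change was 0.28 and did not pass (adjusted p = 0.185). S66184_s_at, not tested, was above the floor on contused arrays 2 and 3 (112 and 142) and under it on the other 4, and rc_AA875582_at was above it on contused array 2 alone (70.9).

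Counted by gene with the brightest tested probe set, 5 of 9 were higher and 0 lower, against 7% higher and 9.91% lower among the 3955 genes tested: Col1a2, Col3a1, Col5a2, Col15a1 and Fn1. The count was 3 without contused array 2, with the brightest probe set of each gene chosen anew. With the tested probe sets of each gene averaged it was 7, with Col1a1 and Lox added (adjusted p = 0.0127 and 0.01).

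Other genes of the matrix were counted in lists. Over 6 lists of other matrix genes, their processing enzymes, their receptors and growth factors that induce them, 16 of 77 genes tested rose and 1 fell. Among all 3955 genes tested, 7% rose and 9.91% fell. Before adjustment, 510 of the 3955 were higher and 668 lower, which is the base for the unadjusted counts of the lists. The 16 genes that rose include Bmp7, which passed the filter through the contused arrays alone. Among other collagen chains 1 of 6 rose and 0 fell (3 higher and 0 lower before adjustment; median log2 change 0.27, against -0.02 over all genes tested). This was Col8a1, a network-forming collagen of vessel walls, with 828, 560 and 901 on the contused arrays and 424, 406 and 356 on the uninjured arrays (1.9-fold, adjusted p = 0.0062). The median of the 9 genes described above was 0.66 on the same scale.

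Of the enzymes and helpers that process collagen, 3 of 10 rose and 0 fell (median 0.31). P4hb, a subunit of the prolyl 4-hydroxylase that stabilises the helix, rose 1.52-fold, from 717 ± 99.5 to 1090 ± 30.7 (adjusted p = 0.00992). P4ha1, another subunit of that enzyme, had a log2 change of -0.16 and did not pass (limma adjusted p = 0.656). Plod1, a lysyl hydroxylase, and Pcolce, which speeds the removal of the carboxyl end piece, rose 1.57-fold each (adjusted p = 0.0249 and 0.0273). Without uninjured array 3, 0 of the 10 passed in limma, and without contused array 2 or uninjured array 1 it was 1. No basement membrane gene passed (0 of 6 higher and 0 lower in limma; 2 higher and 0 lower before adjustment, at an unadjusted p of 0.05; median 0.24), but 1 was higher with averaged probe sets and 1 without the filter on dim probe sets. Lamc1, the laminin gamma chain shared by most laminins, gave 423 ± 24.3 against 336 ± 16.1 (adjusted p = 0.109), and Agrn, the heparan sulfate proteoglycan agrin, 372 ± 20.5 against 404 ± 24.9 (adjusted p = 0.6).

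In the list of elastic fibre, tenascin and matricellular genes 4 of 16 rose and 1 fell (median 0.3). Spp1, the secreted phosphoprotein osteopontin, rose 1.67-fold, from 482 ± 26.9 to 812 ± 134 (adjusted p = 0.00625). Efemp1, a fibulin, rose 2.76-fold from 132 ± 77.1 to 347 ± 110 (adjusted p = 0.0249) and Ltbp1, which tethers latent TGF-beta to the matrix, 1.56-fold (adjusted p = 0.0296). Spock2, a brain proteoglycan related to Sparc, fell from 2060 ± 276 to 1150 ± 200 (log2 change -0.84, adjusted p = 0.00438). Efemp1 and Ltbp1 lost their calls without contused array 2, contused array 3 or uninjured array 3, and in each case 1 gene of the list rose and 1 fell.

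Matrix receptors rose in 5 of 18 cases and fell in 0 (median 0.31). Cd44, the hyaluronan receptor, had 194, 306 and 376 on the contused arrays and 119, 119 and 82.7 on the uninjured arrays, and rose 2.67-fold (adjusted p = 0.0029). Itga1, a collagen-binding integrin chain, rose 1.4-fold (adjusted p = 0.0343) and Itgb4, a laminin-binding one, 1.48-fold (adjusted p = 0.0286). Both lost their calls when any of several arrays was left out (adjusted p up to 0.132 and 0.133), and the list's count fell to 1 without contused array 1 or 2 or uninjured array 3, 2 without uninjured array 1 and 3 without uninjured array 2.

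Growth factors that induce matrix and their signalling genes rose in 3 of 21 cases and fell in 0 (median 0.17). Tgfb1, the best known inducer of collagen and fibronectin genes, gave 214, 296 and 308 on the contused arrays and 99.9, 93.7 and 69.1 on the uninjured arrays. It rose 3.11-fold, from 87.6 ± 16.3 to 273 ± 51.2 (1.64 on the log2 scale, SE 0.2, adjusted p = 0.000338). Its receptor gene Tgfbr1 rose 1.85-fold, from 100 ± 8.85 to 187 ± 30.3 (adjusted p = 0.00353); in GRCr8 it is the gene next to Col15a1, a neighbour looked up after the values were seen. The third, Bmp7, a relative of TGF-beta, was above the floor on 3 contused and 0 uninjured arrays (at least 1.7-fold higher). It passed the filter through the contused arrays alone and was not tested with any of them left out. Without Bmp7 the count is 2 of 20, near the 7% that rose among all genes tested. The calls of Tgfb1 and Tgfbr1, and those of Col8a1, Spp1, Spock2 and Cd44, were kept with any 1 array left out, and 8 of the 14 named genes of these lists, Bmp7 among them, lost theirs at least 1 time. Without contused array 2 or uninjured array 3 the 6 lists together held 7 calls in place of 17, as they did without the filter on dim probe sets.

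**Figure D4:**
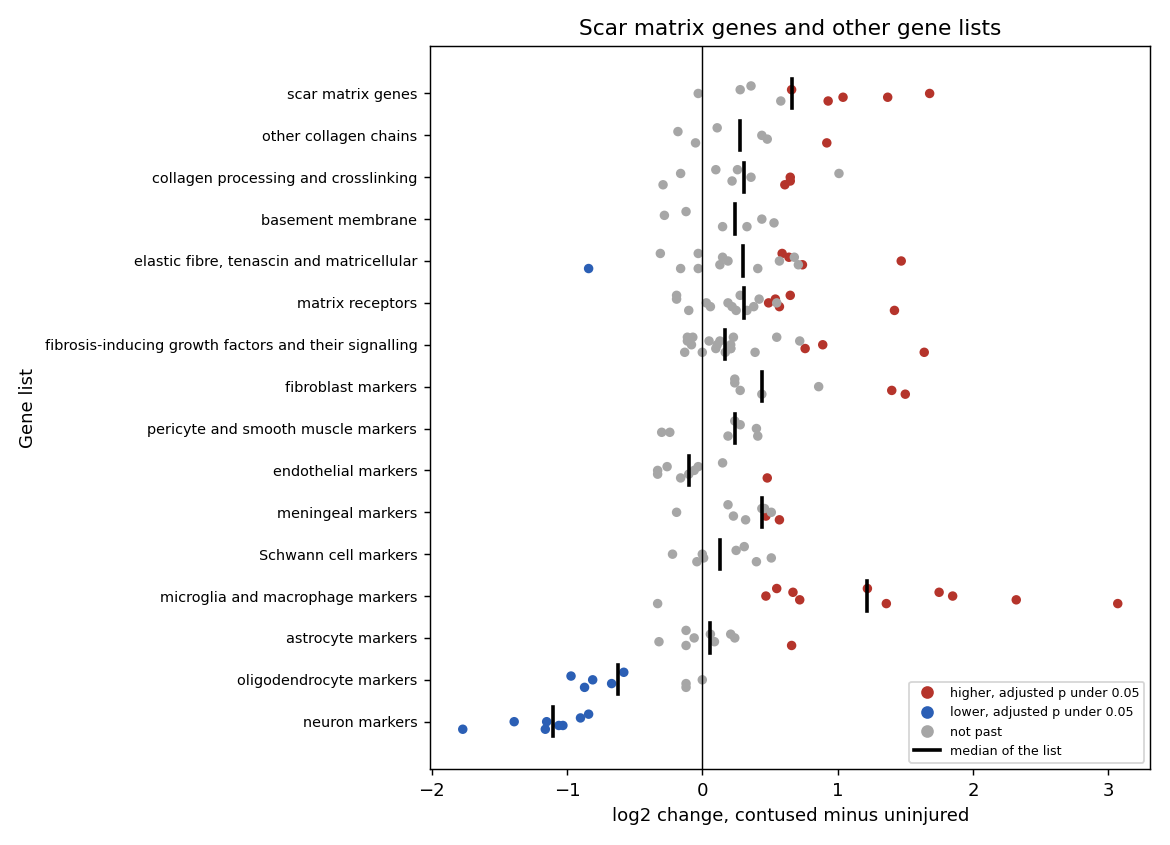
Log2 change, contused minus uninjured, of each tested gene (brightest probe set) for the 9 scar matrix genes and 15 other lists, red where higher and blue where lower at an adjusted p under 0.05, grey otherwise, with a black bar at the median of each list. The medians of the 6 other matrix lists lie between 0.17 and 0.31, against 0.66 for the scar matrix genes and 1.22 for microglia and macrophage markers.

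Markers of the cells that make or border the scar, and of the other cells of the cord, were counted in the same way. Among all 3955 genes tested, 7% rose and 9.91% fell. The 1 of 9 that rose among endothelial and among astrocyte markers is near that share. Before adjustment, 510 of the 3955 genes were higher and 668 lower. In bulk tissue, fewer cells of a type and less RNA per cell cannot be told apart. Fibroblast markers rose in 2 of 7 cases and fell in 0: S100a4 from 511 ± 48.1 to 1450 ± 212 and Vim from 965 ± 312 to 2460 ± 361 (adjusted p = 9.4e-05 and 0.00172), both of which other cells, macrophages and astrocytes among them, also express. Dcn and Lum, more typical of fibroblasts, had log2 changes of 0.44 and 0.86 and did not pass (limma adjusted p = 0.329 and 0.121). Pdgfra, also on the list, had a log2 change of 0.28 and did not pass either (adjusted p = 0.368). Dcn gave 1178, 1360 and 1321 on the contused arrays and 1176, 1340 and 543 on the uninjured arrays. The summed signal of the 7 markers was 5772 to 6421 on the contused and 2209 to 3979 on the uninjured arrays, with uninjured array 3 the lowest. The gap lay in S100a4 and Vim: the other 5 markers summed to 2006, 2269 and 2563 on the contused and 1935, 2228 and 1098 on the uninjured arrays, and the groups overlapped.

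Meningeal markers rose in 2 of 9 cases and fell in 0, namely Igfbp2 (578 ± 72.3 to 855 ± 1.89, adjusted p = 0.0137) and Ptgds (3580 ± 651 to 4890 ± 379, adjusted p = 0.0437), and in 0 of 9 in limma without uninjured array 3. A dimmer Igfbp2 probe set, A09811cds_s_at, had a log2 change of 0.806 and did not pass (limma adjusted p = 0.0522). The summed signal of the 9 meningeal markers was 9068 to 10912 on the contused arrays. It was 8086 and 8531 on uninjured arrays 1 and 2 and 6540 on uninjured array 3. No pericyte or smooth muscle marker passed (0 of 7 in limma, 0 at an unadjusted p of 0.05; 1358 to 1426 against 1241 to 1512), and 1 of 7 without contused array 1, with Tagln at 386 ± 20.4 against 476 ± 61.6 and Abcc9 at 265 ± 34.9 against 229 ± 69.7. Pdgfrb, their defining receptor, was not tested (mean signals 68 and 53.2). Of 9 endothelial markers 1 rose, the adhesion molecule gene Selp at 1.39-fold (adjusted p = 0.0219, up to 0.0777 with 1 array left out, and 0 of 9 called in limma with a floor at 16), and the sum was 1848 to 2130 against 1985 to 2274. Schwann cell markers gave 0 of 8 in limma (2 higher at an unadjusted p of 0.05), but 2 under quantile normalization and 1 under both other floors, trimmed-mean scaling and averaged probe sets, and without contused array 1 or 3 or uninjured array 2, with Pmp22 at 2030 ± 229 against 1530 ± 121 (adjusted p = 0.0507) and Ngfr at 1430 ± 468 against 1110 ± 74.1, and sums of 5866 to 6834 against 5270 to 5456.

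Microglia and macrophage markers rose in 10 of 11 cases and fell in 0. The exception was Csf1r, at 83.2, 81.8 and 88.9 on the contused and 119.9, 86.2 and 115.2 on the uninjured arrays. Its log2 change was -0.33 and did not pass (limma adjusted p = 0.175). Of the 10, Fcgr2b and Itgam passed the filter through the contused arrays alone, and 8 of 9 rose without them. The count was 6 of 9 without contused array 2. The list had a summed signal of 6776 to 7236 on the contused and 1851 to 2531 on the uninjured arrays, and Lgals3 and Cd53 had the smallest p of those measured in both groups. Neuron markers fell in 8 of 8 cases (6348 to 6969 against 12813 to 15059; Thy1, Nefh and Gad1 led) and oligodendrocyte markers in 5 of 8 (13544 to 14616 against 16600 to 17679; Mog, Enpp2 and Gjb1 led). Of 9 astrocyte markers 1 rose, Gja1, from 230 ± 58.4 to 358 ± 40.0 (adjusted p = 0.0338), and the summed signals overlapped (12236 to 12923 against 12075 to 13116). Gja1 did not pass without contused array 2 or 3 or uninjured array 1 or 3 (adjusted p up to 0.137), nor without the filter on dim probe sets. The defining markers of neurons, oligodendrocytes and astrocytes were thus present on every array, as the cord label implies. The part of these cell markers in the rise of the collagens and Fn1 was not tested. For GAPDH control probes the 3′ signal divided by the 5′ signal, which reflects RNA degradation, was 1.15 on uninjured array 3, within the 1.13 to 1.17 of its group. On the contused arrays the GAPDH ratio was 1.08 to 1.12, and the groups did not overlap. For beta-actin the ratio was 1.11 to 1.24 on the contused and 1.03 to 1.28 on the uninjured arrays, which overlap. The part of RNA quality in the results was not tested.

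The genes most like Col1a1, Col3a1 and Fn1 were sought by the root mean square difference of their log2 deviations from the uninjured mean over the 6 arrays, with the brightest probe set of each gene. For Fn1 they were C1r (0.11), a complement protease, Vim (0.18), Slc6a20a (0.21), an amino acid transporter, and Anxa1 (0.21), a phospholipid-binding annexin. C1r gave 286, 410 and 407 on the contused arrays and 156, 227 and 82.8 on the uninjured arrays, with uninjured array 3 lowest, as for Fn1. For Col3a1 they were Serping1 (0.24), the inhibitor of C1, Efemp1 (0.29), Slc6a20a (0.35) and C1r (0.39). For Col1a1, on the probe set that did not pass, they were Slfn5 (0.07), Boc (0.12), Frmd6 (0.14) and Sfrp4 (0.15), and none of these 4 passed (adjusted p = 0.154 to 0.264). Slfn5 gave 204, 304 and 394 in contused cord and 210, 244 and 133 in uninjured cord.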

How the data were processed

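Total RNA of 6 rat spinal cord samples was measured on 1-colour arrays, 3 contused and 3 uninjured, grouped by the sample titles. The deposited table gives 1 intensity per probe set and array. Its values were taken as linear from their range, with 21 to 32 negative ones on each array. The authors' summary, background and scaling steps are not given in the sources used. Trimmed means ran from 211 to 230, a spread of 9.03%, under the limit of 10% for using the deposited intensity values unscaled. The table held 0 columns of other samples.

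Of 8799 probe sets 59 were controls. Gene names came from the platform annotation, updated through gene identifiers to GRCr8 symbols: 7006 probe sets had 1 gene, 308 several and 1426 none. Promoter sequences are RefSeq's for GRCr8. Values under the pooled 25th percentile (61.6, or 5.94 on log2) were set to it, probe sets above it on at least 3 arrays were tested (6705), and limma 3.58.1 in R 4.3.3 compared the groups (lmFit, eBayes with an intensity trend, two-sided, no covariates, 4 residual degrees of freedom), with Benjamini-Hochberg adjustment over all probe sets tested and a threshold of 0.05. Log2 changes understate differences of values at the floor. An "at least" fold sets the mean log2 signal of the brighter group against that floor. Signals of different probe sets are not comparable levels. With 3 arrays a group an exact permutation p is at least 0.1, and no such test is reported. The number of arrays limits the precision. On arrays simulated from this comparison over 6705 probe sets, 88% of 2-fold and 99% of 4-fold changes were recovered, with 8 false calls. Fewer probe sets were changed in the simulation than passed on the measured arrays, so the 8 is not a count of false calls among the latter. Recovery of genes that shift together on 1 array, or of values at the floor, was not tested. On the measured arrays 1165 probe sets passed, against 658 without uninjured array 3 and 662 without the filter on dim probe sets.

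Named are every probe set of the scar matrix genes, of each other list up to 3 risen and 3 fallen genes with the smallest p (or the 2 brightest where none passed), and the 4 genes most like Col1a1, Col3a1 and Fn1. Dcn, Lum, Pdgfra, Pdgfrb, Itgam, Csf1r, P4ha1 and the dimmer Igfbp2 probe set were picked after their values were seen. So were the fibroblast sum without S100a4 and Vim, and the array values of Slfn5 and C1r. The genes, the 15 other lists and the tests were chosen with earlier results of these data known. Plots used Python 3.11.15, pandas 2.3.3 and matplotlib 3.10.9.

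Alternatives were other floors, no filter, 2 other scalings, no intensity trend, a replicate block, each array left out and averaged probe sets. Replicate numbers were not taken to pair the samples: deviations of same-numbered arrays from their group means correlated at 0.042, 0.222 and -0.244.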

Additional observations from a re-analysis of the deposited data

How the results depend on the processing

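The count of scar matrix probe sets that passed, 12 of 20, was 10 of 16 tested with a higher floor, the pooled 50th percentile, 12 with a floor at 16, with the arrays scaled to the same trimmed mean and without the intensity trend, and 13 under quantile normalization. With the replicate block, which the numbers do not support as a pairing, it was 13, and over the whole array 1200 in place of 1165. The call added there was the Fn1 probe set M28259cds_at, which was tested through the contused arrays alone. Without the filter on dim probe sets it was 1 of 23, and over the whole array 662. The count by gene was then 0 in place of 5, and the other matrix lists held 7 in place of 17. At an unadjusted p of 0.05 in limma, 5 of the 9 genes were higher in that fit, as were 912 of all 8740 probe sets. An alternative chosen after seeing the data, no filter with the floor at 16, gave 2 of 23, 1 gene, 11 in the other matrix lists and 875 over the whole array. The cause was not tested.

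With 1 array left out, the counts ran from 8 to 13 for scar matrix probe sets and from 658 to 1239 over the whole array, and 8 of the 12 calls were kept throughout. They ran from 3 to 6 by gene and from 7 to 18 for the other matrix lists. For these gene counts the brightest probe set was chosen anew in each fit, so a gene could be represented by another probe set. The changes that reversed sign had not passed: with 1 array left out, Col12a1 ran from -0.13 (without uninjured array 3) to 0.67, Sparc rc_AA891204_s_at from -0.34 to 0.26 (negative without contused array 3 or uninjured array 3), Sparc rc_AA892248_at from -0.08 to 0.05 (positive without uninjured array 3) and Sparc Y13714_at from -0.35 to 0.21 (positive without contused array 1 or 2 or uninjured array 1 or 2). With trimmed-mean scaling the last 2 were 0.01 and 0.03, and Y13714_at was 0.08 under quantile normalization. The array has no count depth. Signals under the floor limit what can be said of Lox, Col15a1, 3 Fn1 probe sets and Col12a1, whose log2 change was 0.02 with the higher floor.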
